A study of Saccharomyces cerevisiae with 6 samples.

Results

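The autophagy-related (ATG) genes of the budding yeast Saccharomyces cerevisiae were followed on 6 one-colour Affymetrix arrays. Members were all genes whose symbol in the platform's gene annotation was ATG followed by a number, and 34 of the 5449 yeast genes tested met this rule. Each of the 34 was read by 1 probe set. They were sorted by known role into 18 genes of the core machinery, 10 selective autophagy factors and 6 genes with other roles. Wild type (WT) was the label of 3 arrays. The other 3 carried the label gpm1, a mutant that lacks phosphoglycerate mutase, an enzyme of glycolysis. By the labels, all cultures were grown in batch on ethanol and glycerol. The labels used here give no strain background, growth phase or clone for either group. Nor do they state whether replicates were grown as separate cultures, so a p-value here reflects the spread of these samples alone, and that spread may be technical.

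Autophagy carries cytoplasm to the vacuole, the lysosome of yeast, inside double-membrane vesicles called autophagosomes. It is held low by the kinase complex TORC1 while nutrients are plentiful and switched on by starvation, above all for nitrogen. Core ATG proteins build autophagosomes. Selective factors are mostly receptors that pick a cargo such as mitochondria, peroxisomes, nuclear envelope or vacuolar enzymes. The class used here also holds the scaffold gene ATG11, the mitophagy gene ATG33, and ATG20 and ATG21 of Cvt membrane traffic. In growing yeast much of the core machinery also runs the Cvt pathway, which delivers aminopeptidase I and alpha-mannosidase to the vacuole.

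Signals are given as deposited, on a scale taken to be log2, so that a difference of 1 is 2-fold. GPM1, the deleted gene, stood at 5.16, 5.12 and 5.17 on the arrays labelled WT and at 12.51, 12.48 and 11.82 on those labelled gpm1. The deleted gene therefore ran against the labels, and each direction below follows the labels and makes no statement on genotype. Annotated probe sets without a gene in the S. cerevisiae R64 table were taken as background, and their 95th percentile was 6.10. The mean of 31 ATG genes lay above it, while ATG15, ATG16 and ATG29 lay under it and are dim. Labelled gpm1 replicate 3 stood apart from the other 2 arrays of its group: it was the labelled gpm1 array nearest to the labelled WT mean for 65.6% of all genes. The mean of 24 poly-A control probe sets, which report on RNA handling, was 5.93, 6.24 and 6.24 on the arrays labelled WT and 7.19, 6.71 and 6.23 on labelled gpm1 replicates 1, 2 and 3. Mating type and meiosis markers had 0 of 12 genes past an adjusted p of 0.05 by limma, against 0.807% of all genes. At an unadjusted p under 0.05 by limma there were 5, against 22.4% of all genes. The list held 14 markers, but MFALPHA1 and MFALPHA2 were not matched by name and were not counted. Mating type alpha was thus read from STE3 and SAG1 alone. The labels state no mating type.

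Most ATG genes had lower signals on the arrays labelled gpm1, by amounts that were mostly under 2-fold and that did not pass the test across all genes. The log2 difference (the mean of the arrays labelled gpm1 less that of the arrays labelled WT) was below 0 for 26 of the 34 genes, where 47.6% of all genes were below 0. Its median over the ATG genes was -0.22, beside 0.02 over all genes, and it ranged from -1.11 for ATG39 to 0.35 for ATG18. With limma and Benjamini-Hochberg adjustment over 5449 genes, 0 of 34 passed an adjusted p of 0.05, a threshold that 0.807% of all genes passed. At an unadjusted p under 0.05 there were 11 ATG genes, all of them lower, beside 22.4% of all genes in either direction. All 3 arrays labelled gpm1 lay below all 3 labelled WT for 14 ATG genes, against 15.4% of all genes. The reverse held for 0 ATG genes, against 19.2% of all genes. Leaving out labelled gpm1 replicate 1 gave a lower count of 22, and the share of all genes was then 22.4%. The higher count became 5 once labelled gpm1 replicate 3 was dropped, against 35.1% of all genes, and 2 when the dropped array was labelled WT replicate 1, against 21.1%. ATG39 and ATG41 were the 2 members with a mean difference of at least 2-fold, a size that 2.09% of all genes reached in that direction.

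**Figure D1:**
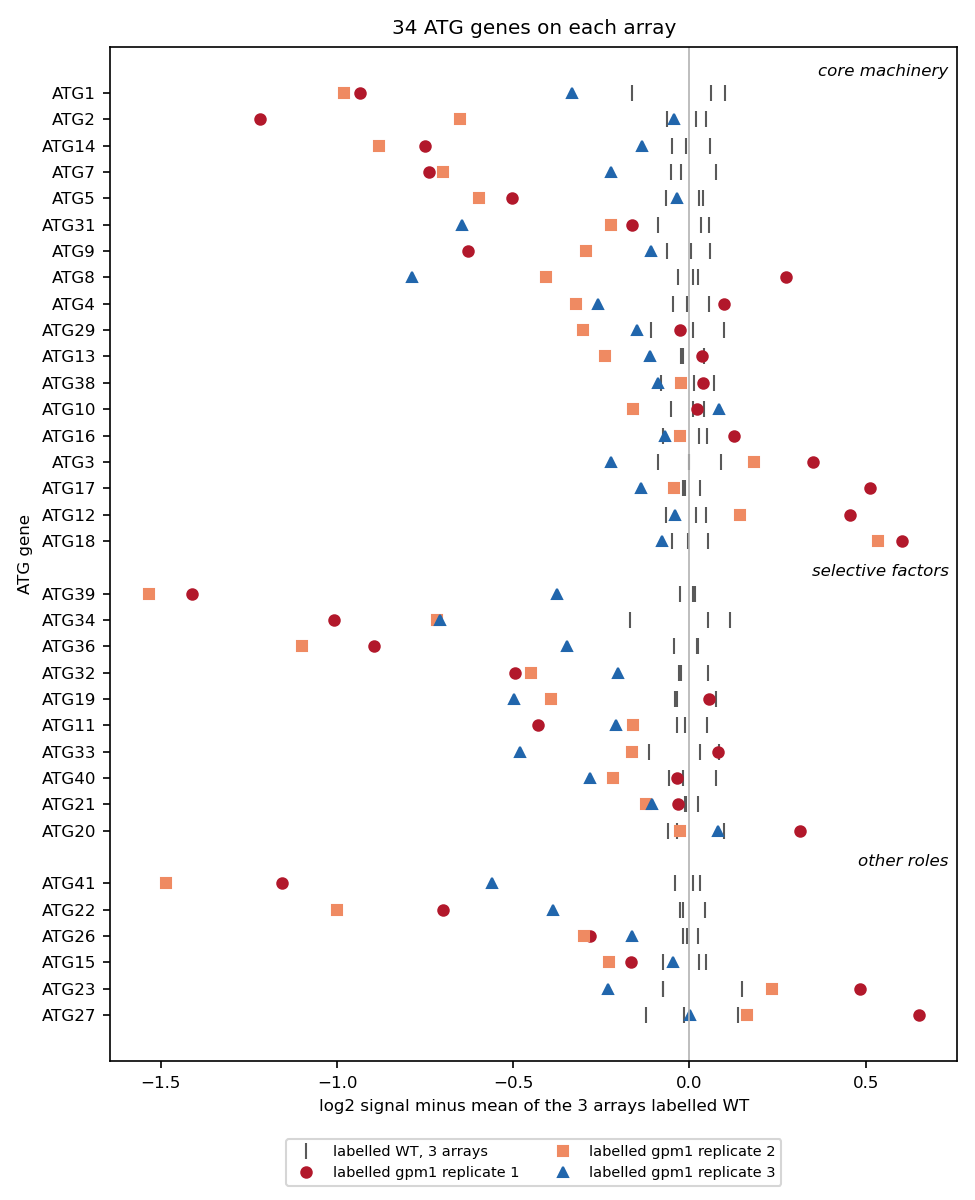
The 34 ATG genes by class, each symbol 1 array: the horizontal axis is the log2 signal minus the mean of the 3 arrays labelled WT, ticks are labelled WT arrays, and circles, squares and triangles are labelled gpm1 replicates 1, 2 and 3. Most symbols of the labelled gpm1 arrays lie left of 0, farthest for ATG39 and ATG41, while ATG18, ATG12, ATG17 and ATG3 have replicate 1 on the right.

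The 3 lowest differences among the selective factors belonged to receptors. ATG39, the receptor for the nuclear envelope, read 9.73, 9.69 and 9.73 on the arrays labelled WT and 8.31, 8.19 and 9.34 on those labelled gpm1. Its groups did not overlap, and replicate 3 lay much nearer to labelled WT than the other 2. The difference was -1.11 (SE 0.30, limma adjusted p = 0.187), a fold of 2.15. ATG36, the receptor of pexophagy, which removes peroxisomes, read 8.38, 8.31 and 8.38 against 7.46, 7.26 and 8.01. Replicate 3 was again the highest of the labelled gpm1 arrays and still under all labelled WT arrays, with a difference of -0.78 (SE 0.20, limma adjusted p = 0.173).

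ATG32 encodes the mitochondrial outer membrane receptor of mitophagy. It read 7.95, 7.94 and 8.03 on the arrays labelled WT and 7.48, 7.52 and 7.77 on those labelled gpm1. The groups did not overlap, and the difference was -0.38 (SE 0.11, limma adjusted p = 0.192). ATG33, for another mitochondrial protein of mitophagy, behaved otherwise, with 9.46, 9.26 and 9.41 against 9.46, 9.22 and 8.90. Only its replicate 3 value lay clearly under the labelled WT arrays, and the difference was -0.19 (SE 0.16, limma adjusted p = 0.467). The receptor for the endoplasmic reticulum, ATG40, read 8.32, 8.22 and 8.18 against 8.21, 8.03 and 7.96, a difference of -0.18 (SE 0.10, limma adjusted p = 0.313) with overlapping groups.

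ATG34 had the smallest p of all ATG genes. It encodes a receptor that brings alpha-mannosidase to the vacuole, and it read 8.48, 8.27 and 8.55 on the arrays labelled WT and 7.42, 7.72 and 7.73 on those labelled gpm1. Replicates 2 and 3 of labelled gpm1 lay close together here, and replicate 1 was lower. The difference was -0.81 (SE 0.13, limma adjusted p = 0.0597), a fold of 1.75, which missed the threshold. AMS1, the gene for alpha-mannosidase itself, is no ATG gene. It read 8.44, 8.36 and 8.64 against 7.41, 7.77 and 7.73, a difference of -0.85 (SE 0.14, limma adjusted p = 0.0597). ATG34 and AMS1 thus both had the 3 arrays labelled gpm1 under labelled WT, without overlap, as 15.4% of all genes did. Replicate 1 was lowest for both. Their SDs among the arrays labelled gpm1 were 0.17 and 0.20. Smaller ones, also without overlap, were found for ATG11, ATG21, ATG26 and ATG32 (0.14, 0.05, 0.07 and 0.16). With 1 array left out the difference stayed between -0.89 and -0.71 for ATG34 and between -0.91 and -0.73 for AMS1.

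ATG19, the neighbouring gene and paralogue of ATG34, encodes the receptor of the Cvt pathway, which also delivers alpha-mannosidase. It read 9.10, 9.09 and 9.21 on the arrays labelled WT and 9.19, 8.74 and 8.63 on those labelled gpm1. Replicate 1 lay among the labelled WT arrays, so the groups overlapped, and the difference was -0.28 (SE 0.16, limma adjusted p = 0.315). Within each array the ATG34 signal minus the ATG19 signal was -0.61, -0.82 and -0.66 under the label WT and -1.76, -1.02 and -0.91 under the label gpm1. The change in that gap was -0.53, with p = 0.1 by an exact two-sided permutation test, which cannot go lower for 3 arrays against 3. APE1, the gene for the Cvt cargo aminopeptidase I, read 9.39, 9.48 and 9.52 against 9.24, 9.08 and 9.17, and was named after its values were seen. Its groups did not overlap, with a difference of -0.30 (SE 0.09, limma adjusted p = 0.196). APE4, for another vacuolar aminopeptidase, stood at 0.11 (SE 0.11, limma adjusted p = 0.528).

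The remaining selective factors had differences near or above those of ATG19. ATG11, the scaffold that gathers receptors where the autophagosome starts, read 8.43, 8.36 and 8.34 against 7.95, 8.22 and 8.17. Its groups did not overlap, and the difference was -0.27 (SE 0.10, limma adjusted p = 0.214). ATG21, for a phosphoinositide-binding protein of the Cvt pathway, had 8.31, 8.31 and 8.34 against 8.28, 8.20 and 8.21, a gap of -0.09 (SE 0.08, limma adjusted p = 0.504) despite groups that did not overlap. ATG20, for a sorting nexin, was the 1 selective factor with a mean above labelled WT. It read 7.61, 7.45 and 7.48 against 7.83, 7.49 and 7.59, and the groups overlapped (difference 0.12, SE 0.12, limma adjusted p = 0.524).

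**Figure D2:**
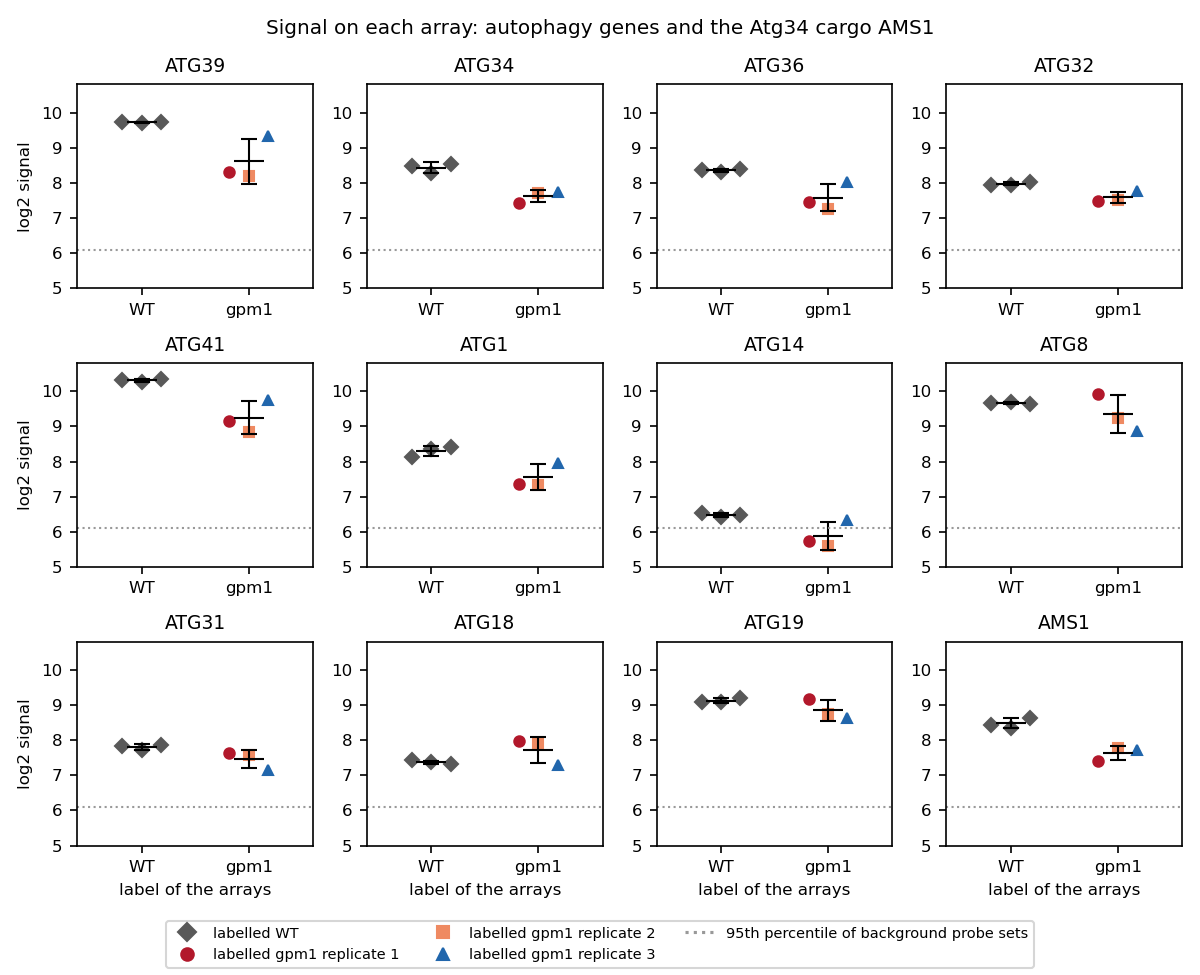
Log2 signal on each array for 11 ATG genes and AMS1, the cargo of Atg34: diamonds are arrays labelled WT, coloured symbols are labelled gpm1 replicates 1, 2 and 3, bars are mean ± SD (n = 3), and the dotted line is the background percentile of 6.10. ATG34 and AMS1 have all labelled gpm1 arrays under labelled WT, with replicate 1 lowest. ATG39 and ATG41 have replicate 3 nearer to labelled WT, and ATG8 has replicate 1 above and replicate 3 below.

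The core machinery was split, with its 4 lowest differences, -0.75 to -0.55, in ATG1, ATG2, ATG14 and ATG7, and differences of -0.02 to 0.35 in ATG3, ATG10, ATG12, ATG16, ATG17, ATG18 and ATG38. ATG1, the protein kinase that sets off autophagosome formation, read 8.14, 8.37 and 8.41 on the arrays labelled WT and 7.37, 7.32 and 7.97 on those labelled gpm1. The groups did not overlap, and the difference was -0.75 (SE 0.19, limma adjusted p = 0.181), the lowest of the core genes. Its partners in the kinase complex went their own ways. ATG13, for the regulatory subunit on which TORC1 acts, stood at -0.11 (SE 0.10, limma adjusted p = 0.521). ATG17, for the scaffold of bulk autophagy, read 7.07, 7.02 and 7.02 against 7.55, 6.99 and 6.90. Replicate 1 lay above labelled WT and the other 2 just under it, and the mean difference was 0.11 (SE 0.18, limma adjusted p = 0.712). ATG31, which links Atg17 to Atg29, read 7.84, 7.72 and 7.86 against 7.64, 7.58 and 7.16. There replicate 3 was the lowest array, the groups did not overlap, and the difference was -0.34 (SE 0.15, limma adjusted p = 0.229). ATG29 was dim and stood at -0.16 (SE 0.11, limma adjusted p = 0.388).

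Membrane supply involves Atg9, a lipid scramblase of the vesicles that seed the autophagosome, and the lipid transfer protein Atg2 with its partner Atg18. ATG9 read 7.12, 7.07 and 7.003 against 6.44, 6.77 and 6.96, lower in all 3 arrays labelled gpm1 but only narrowly in replicate 3 (difference -0.34, SE 0.15, limma adjusted p = 0.228). ATG2 read 7.39, 7.28 and 7.36 against 6.13, 6.70 and 7.30. Its replicate 3 value lay among the labelled WT arrays and its replicate 1 value near background, and the difference was -0.64 (SE 0.28, limma adjusted p = 0.235). ATG18 ran the other way, with 7.42, 7.37 and 7.32 against 7.98, 7.91 and 7.29. Replicates 1 and 2 were above labelled WT and replicate 3 just below, which left a difference of 0.35 (SE 0.19, limma adjusted p = 0.294), the highest of the 34 genes. Partners of one lipid transfer complex thus had differences of opposite sign, neither past the threshold.

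The lipid kinase complex that marks the membrane was represented by ATG14, the subunit that directs it to autophagy, and ATG38. ATG14 read 6.53, 6.43 and 6.46 on the arrays labelled WT and 5.72, 5.59 and 6.34 on those labelled gpm1. Replicates 1 and 2 lay under the background percentile, where differences in level are poorly resolved, and the difference was -0.59 (SE 0.20, limma adjusted p = 0.201). ATG38 stood at -0.02 (SE 0.09, limma adjusted p = 0.873). ATG6 is listed on the platform as VPS30 and therefore fell outside the rule. VPS30, a subunit of both Vps34 kinase complexes, read 7.75, 7.67 and 7.73 against 8.26, 8.04 and 7.77, above labelled WT in all 3 arrays, with a difference of 0.31 (SE 0.14, limma adjusted p = 0.240).

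The ubiquitin-like proteins Atg8 and Atg12 are joined to their targets by linked conjugation routes, which let the membrane grow. ATG8, whose product coats the growing membrane and binds receptors, read 9.67, 9.68 and 9.62 against 9.93, 9.25 and 8.87. The labelled gpm1 arrays lay on both sides of labelled WT, and the difference was -0.31 (SE 0.26, limma adjusted p = 0.470). ATG7, for the activating enzyme of both conjugation routes, read 7.48, 7.45 and 7.58 against 6.76, 6.80 and 7.28 and did not overlap (difference -0.55, SE 0.16, limma adjusted p = 0.192). ATG5, the acceptor of Atg12, had a difference of -0.38 (SE 0.16, limma adjusted p = 0.228), with replicate 3 among the labelled WT arrays. ATG3, for the enzyme that transfers Atg8, read 8.01, 8.10 and 8.19 against 8.45, 8.28 and 7.88. ATG12 read 7.44, 7.32 and 7.41 against 7.85, 7.53 and 7.35. Both had replicates 1 and 2 above labelled WT and replicate 3 not, with differences of 0.10 and 0.19. The protease gene ATG4 and the conjugation genes ATG10 and ATG16 stood at -0.16, -0.02 and 0.01, with overlapping groups.

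Among the 6 genes with other roles, ATG41, whose product binds Atg9, had the lowest value. It read 10.33, 10.27 and 10.35 on the arrays labelled WT and 9.16, 8.83 and 9.75 on those labelled gpm1. The groups did not overlap, and the difference was -1.07 (SE 0.23, limma adjusted p = 0.135), a fold of 2.10. ATG22, for a vacuolar exporter of amino acids, read 8.55, 8.48 and 8.48 against 7.80, 7.50 and 8.12, also without overlap (difference -0.69, SE 0.16, limma adjusted p = 0.154). The sterol glucosyltransferase gene ATG26 lay lower in all 3 arrays by a small amount, -0.25 (SE 0.08, limma adjusted p = 0.201). ATG23 and ATG27, whose products travel with Atg9, stood at 0.16 and 0.27 with overlapping groups. The lipase gene ATG15 was dim and stood at -0.15.

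Set side by side, the median difference was -0.16 for the core machinery and -0.27 for the selective factors, beside 0.02 for all genes. Groups did not overlap, on the lower side, for 5 of 18 core genes and 6 of 10 selective factors, against 15.4% of all genes. The core median was -0.08 when labelled gpm1 replicate 2 was left out. The difference between the classes was not tested, and with ATG23 and ATG27 counted as selective the median of that class was -0.23. By array, the core median minus the labelled WT mean was 0.03, -0.27 and -0.12 in labelled gpm1 replicates 1, 2 and 3, and the selective median was -0.23, -0.30 and -0.31. With the classes as sorted here, the selective median was thus below 0 in each array, and the core median in 2 of 3. In replicate 1 ATG23 and ATG27, counted under other roles, lay at 0.48 and 0.65, so the contrast there depends on the sorting. Within the selective class the 6 receptors had a median difference of -0.58. ATG11 stood at -0.27, ATG33 at -0.19 and the 2 genes of Cvt membrane traffic, ATG20 and ATG21, at a median of 0.02. In replicate 1, 7 of 18 core genes lay below all 3 arrays labelled WT and 7 lay above all 3. Over all genes those shares were 41.5% and 50.3% in replicate 1, so the core genes were not set apart by this spread. Replicate 1 spread all genes widest, with quartiles of -0.32 and 0.41. They were -0.27 and 0.26 in replicate 2 and -0.09 and 0.12 in replicate 3.

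**Figure D3:**
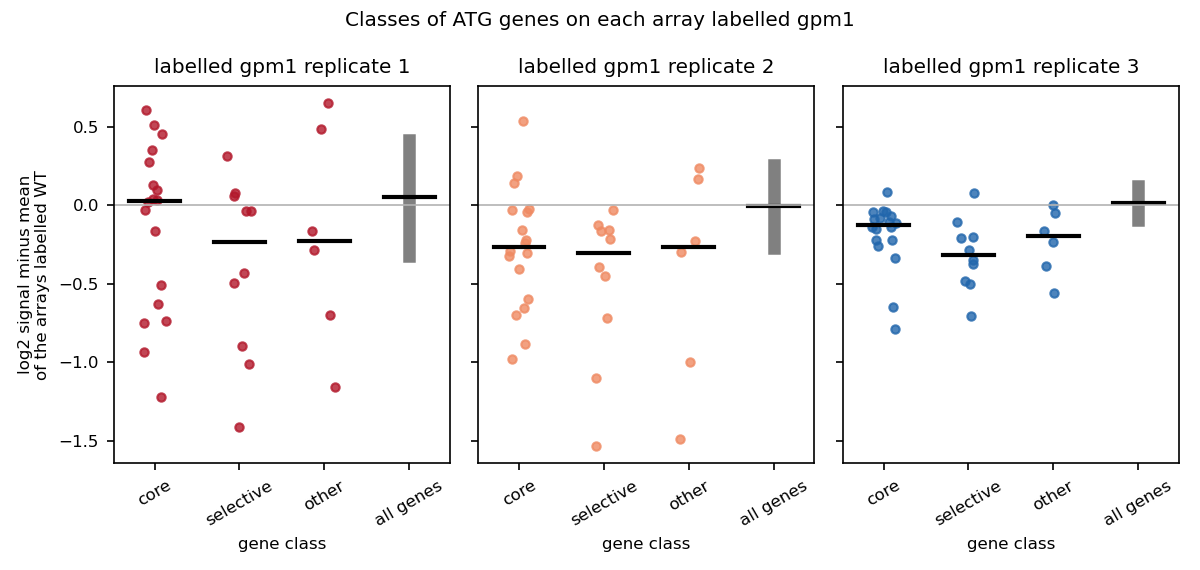
Log2 signal minus the mean of the arrays labelled WT for each ATG gene (points) by class, 1 panel per array labelled gpm1: black lines are medians, and the grey bar is the interquartile range of all 5449 genes. The selective median is below 0 in each panel (-0.23, -0.30 and -0.31), and the core median is near 0 in replicate 1.

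Labelled gpm1 replicate 3 lay near labelled WT for most genes, but the ATG genes were mostly on its lower side. In it 26 of the 34 ATG genes lay below all 3 arrays labelled WT, against 34.5% of all genes, and 1 lay above, against 42.5%. The corresponding counts below were 17 in replicate 1, against 41.5%, and 26 in replicate 2, against 45.3%. The distances in replicate 3 were small, with a median of -0.18. For 10 ATG genes replicate 3 was the lowest of all 6 arrays, as it was for 15.2% of all genes, among them ATG8, ATG31, ATG19, ATG33 and ATG40. The poly-A controls of replicate 3 lay at 6.23, within the range of the arrays labelled WT. Those of replicates 1 and 2 lay above it at 7.19 and 6.71, and their part in the values of those arrays was not tested. Spread among the arrays labelled gpm1 exceeded that among the arrays labelled WT for 33 of 34 members, with median SDs of 0.27 and 0.06. It did so for 94.6% of all genes, with median SDs of 0.25 and 0.05.

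Leaving out replicate 3 changed the calls. In that fit 13 ATG genes passed as lower, where 19.5% of all genes did, and 1 passed as higher, where 21.6% did. Counted in either direction, 14 passed, or 41.2%, a share like the 41.1% of all genes. The lower genes were ATG1, ATG2, ATG5, ATG7, ATG9 and ATG14 of the core, ATG32, ATG34, ATG36 and ATG39 of the selective factors, and ATG22, ATG26 and ATG41. The higher gene was ATG18, at 0.57. Differences without replicate 3 reached -1.47 for ATG39, -1.32 for ATG41, -0.997 for ATG36 and -0.96 for ATG1. Over 16 alternative settings the limma adjusted p of ATG39 ranged from 0.00073 to 0.506, and that of ATG34 from 0.0067 to 0.407. With array weights, which count the more variable arrays for less, 8 ATG genes passed as lower, against 9.18% of all genes. ATG8 did not pass with or without replicate 3, and its difference without it was -0.07.

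**Figure D4:**
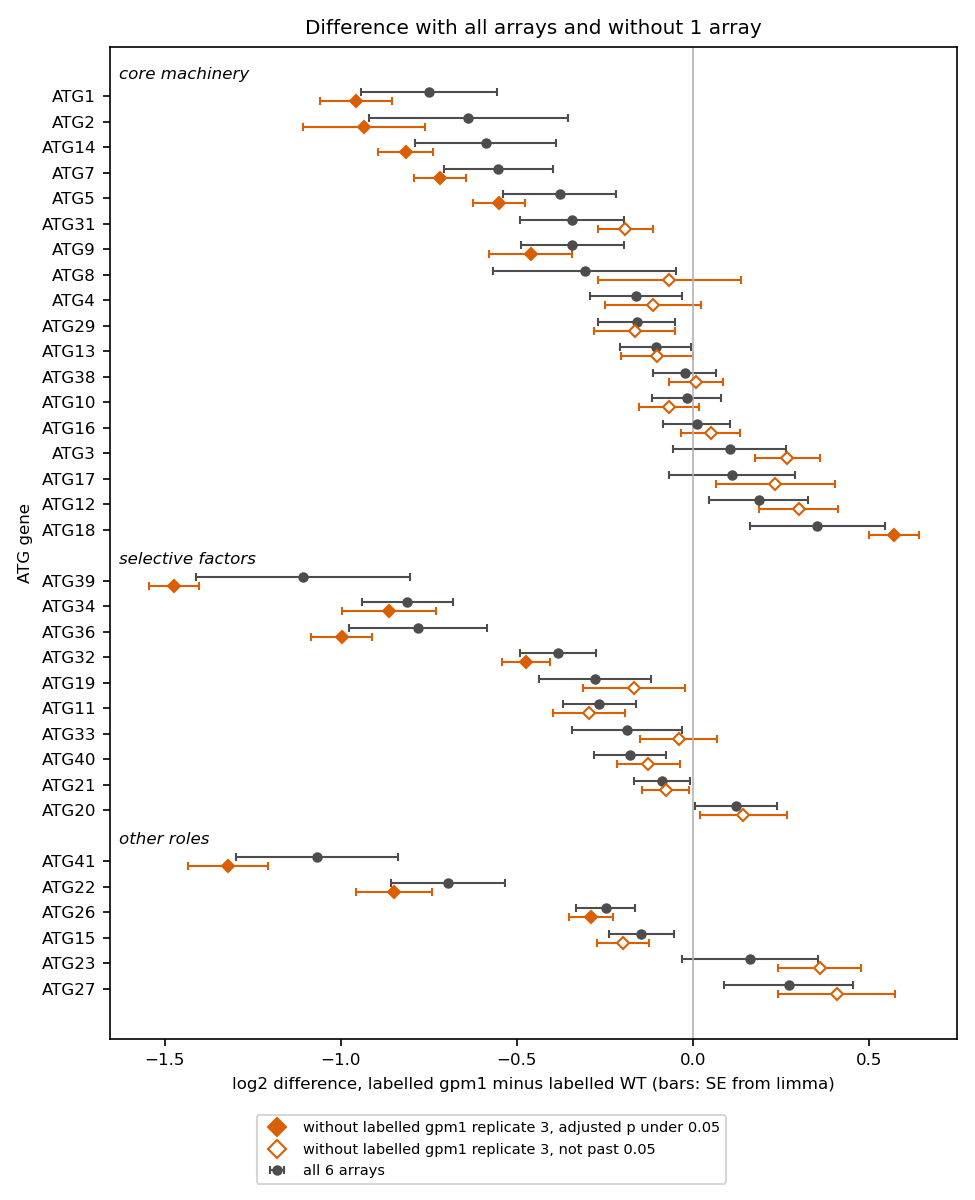
Log2 difference between the labelled groups (gpm1 less WT) with its SE from limma for each ATG gene: grey circles use all 6 arrays, and orange diamonds leave out labelled gpm1 replicate 3 (filled where the adjusted p was under 0.05). No ATG gene passed with all arrays, against 0.807% of all genes. Without replicate 3, 14 of 34 did, against 41.1% of all genes, and of these ATG18 alone was higher.

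Other genes of the pathway also stayed short of the threshold with all arrays: 0 of 50 passed with limma, against 0.807% of all genes. At an unadjusted p under 0.05 there were 11, near the 22.4% of all genes, and 25 passed without labelled gpm1 replicate 3, where 41.1% of all genes did. Genes of sorting and tethering had a median of 0.20, from -0.16 for VAC8, which anchors Cvt proteins to the vacuole, to 0.29 for the small GTPase gene ARL1. The sorting nexin gene SNX4, also known as ATG24, stood at 0.22 (SE 0.20, limma adjusted p = 0.491). Genes of fusion with the vacuole had a median of 0.17, from -0.08 for CCZ1 to 0.46 for the SNARE gene VTI1. Leaving out labelled gpm1 replicate 1 brought the median to 0.06 for sorting and tethering and to 0.03 for fusion, and without replicate 3 that for fusion was 0.26. The Vps34 kinase complexes had a median of -0.02, from -0.44 for VPS15, the regulatory kinase, to VPS30.

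Differences were below 0 for 4 of 4 vacuolar proteases, 6 of 11 genes of TORC1 and its phosphatase branch and 10 of 12 transcriptional regulators, against 47.6% of all genes. Vacuolar proteases had a median of -0.31, with PRB1 at -0.58 and PEP4, the protease that activates the others, at -0.02. PRB1 read 10.22, 10.29 and 10.48 against 10.10, 9.52 and 9.63, without overlap (limma adjusted p = 0.196). The TORC1 genes had a median of -0.21, from TOR2 at -0.79 (SE 0.28, limma adjusted p = 0.204) to TAP42 at 0.42. The transcriptional regulators had a median of -0.16. Without labelled gpm1 replicate 1 the median was -0.16 for the proteases and -0.11 for the TORC1 genes, and without replicate 3 it was -0.25 for the regulators. Of the regulators RPH1, a repressor of ATG genes, was lowest at -0.38 (SE 0.10, limma adjusted p = 0.185), and the histone deacetylase gene RPD3 was highest at 0.20. UME6, for the factor that recruits that deacetylase to the ATG8 promoter, stood at -0.11 (SE 0.13, limma adjusted p = 0.619). The Cvt cargo list had a median of -0.17.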

How the data were processed

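Total RNA was amplified from the 3' end, biotin-labelled and read on 1 array per sample. The deposited values were made by the authors with PLIER, per the submitters' processing notes, and are taken as log2 from their range. Sources used here do not give the version, offset, scaling or log base. Genes were named through the platform annotation and the R64 gene table, keeping the brightest probe set per gene. No ATG gene had more than 1. Levels of different genes are not compared, and the gap between ATG34 and ATG19 is read only for its change between the labelled groups.

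The main test was limma 3.58.1 (lmFit, eBayes) in R 4.3.3, two-sided, over 5449 genes. On data with known answers it recovered 88% of genes changed by a log2 of 1 and 100% of those changed by 2. Of its calls there 6.93% were false, above the 5% threshold. Its behaviour where 1 group spreads more than the other, as here, was not tested. Exact permutation used scipy 1.17.1, and plots matplotlib 3.10.9. Precision is limited by 3 arrays per group.

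Roles, classes and lists of pathway genes were set by hand. Members and lists were chosen with earlier results of these data known. Every ATG gene could be named. Values on every array were given for the core and selective genes with the 4 highest and 4 lowest differences. By the same rule they were given for 2-fold calls with an array left out and for ATG1, ATG8, ATG9, ATG11, ATG19, ATG32 and ATG34. Those of ATG22 and ATG31 were given outside this rule. Of each other list, the highest, the lowest and those past the threshold were named. APE1, SNX4 and UME6 were added after their values were seen. VPS18 and VPS39 were not analysed here. No sequences are shown.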

Additional observations from a re-analysis of the deposited data

How the results depend on the processing

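The count of ATG genes past the threshold stayed at 0 in 14 of 16 alternative settings. They included quantile normalization, centring, offsets of 16 and 64, filters on dim genes and averaged probe sets. The others were a trend and robust prior, the replicate block and leaving out any 1 array other than labelled gpm1 replicate 3. Each of the 14 called only 11 to 60 of all genes tested, so a count of 0 among 34 members says little about them. With array weights, a fit that stopped before full convergence, 8 were lower, beside 9.18% of all genes. In either direction 3 of the 50 pathway genes passed in that fit, beside 1009 of all 5449 genes. Leaving out 1 array gave 0 to 13 lower and 0 to 1 higher ATG genes, 14 to 22 (the latter without labelled gpm1 replicate 1) with groups not overlapping on the lower side and 0 to 5 on the higher side, and 0 to 25 pathway genes past the threshold. It moved the median of the selective factors between -0.32 and -0.23, that of the core machinery between -0.21 and -0.08 and that of the vacuolar proteases between -0.43 and -0.16. The median of sorting and tethering ranged from 0.06 to 0.30, fusion from 0.03 to 0.26, TORC1 from -0.26 to -0.11, transcriptional regulators from -0.25 to -0.14, Cvt cargo from -0.23 to -0.12 and the Vps34 complexes from -0.05 to -0.0041. Counting ATG23 and ATG27 as selective gave that class a median of -0.23. With the dimmest 20% of genes left out the core median was -0.065, over 10 genes. Leaving out genes at or under the background percentile gave a core median of -0.234, over 16 genes. The selective median was -0.27 under both filters, so the gap between the classes depends on the filter. Updating symbols added 0 genes. GPM1 passed in all 16 settings. Deviations of same-numbered arrays from their group means had correlations of 0.05, 0.02 and -0.13. With 3 arrays per group these values cannot settle whether the numbers pair the samples. The replicate block gave 0 ATG calls and 31 over all genes, against 44 without it. Of 532 values for single ATG genes under the alternatives, 11 turned sign, each for a gene with a difference of -0.02 to 0.11 on all 6 arrays. The 532 include settings that could not change a difference, so the share that turned understates how far it can move. Those settings were the filters on dim genes, averaged probe sets, the trend and robust prior and the replicate block. ATG10 was 0.019 with quantile normalization, and ATG16 was -0.010 with centring and -0.000938 with array weights. PEP4 was 0.00474 with quantile normalization. With 1 array left out, ATG10 ranged from -0.068 to 0.053, ATG16 from -0.048 to 0.050, ATG17 from -0.091 to 0.23, ATG3 from -0.019 to 0.27, ATG38 from -0.065 to 0.010 and PEP4 from -0.059 to 0.029. The cause of these moves was not tested. Signal near background limits ATG14, ATG15, ATG16 and ATG29.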
